A study of Mus musculus with 2 samples.

Results

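The nuclear genes of respiratory complex I were examined in the calf muscle gastrocnemius of the mouse. The genes were those whose symbol begins with Nduf and that have at least 1 transcript classed protein_coding. Of 51 annotated genes with such a symbol, 46 qualified, out of 55536 annotated genes and 21901 with a protein-coding transcript. They comprise 36 subunits of the complex, 8 assembly factors (Ndufaf1 to Ndufaf8) and 2 genes, Ndufa4 and Ndufa4l2, that carry the family name but are not complex I subunits. Total RNA depleted of ribosomal RNA was sequenced from 2 adult male mice of B6CASTF1/J, the hybrid offspring of a cross between the strains C57BL/6J and CAST/EiJ, aged 8 to 10 months. There was 1 library from 300 ng of RNA for each animal. Neither animal was treated, no genotype other than the hybrid is named, and both form a single group, so no condition can be compared. The labels give the libraries different animal numbers but 1 shared donor entry, so the spread between them is taken as that between these samples.

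Complex I, NADH:ubiquinone oxidoreductase, takes electrons from NADH, passes them along a chain of iron-sulphur clusters to ubiquinone, and pumps protons across the inner mitochondrial membrane. It is L-shaped. A matrix arm holds the NADH-oxidising N module and the quinone-reducing Q module, and a membrane arm holds the proton pumps, which are encoded in mitochondrial DNA. Accessory subunits surround these core parts, and assembly factors help to build the complex but are absent from the finished enzyme.

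The libraries held 36792619 and 37752252 gene counts. The least deeply covered member had 56 counts in replicate 1 and 93 in replicate 2. The 7 muscle genes that check the tissue lay between 4269 and 17876 TPM (a level scaled to the library and corrected for transcript length). The heart, liver, brain and skin markers Nppa, Myl7, Alb, Snap25 and Krt5 were at or below 0.18 TPM in both libraries. The slow fibre list was higher in replicate 1 for 6 of 6 genes (summed level 1358 and 890 TPM). The fast fibre list was higher in replicate 2 for 6 of 6 (58968 and 64728 TPM). The part of fibre type in the differences between the libraries was not tested. In whole muscle, fewer cells of a type and less RNA per cell cannot be told apart.

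Sequences from the reference transcripts are shown here because the transcript results below turn on them. Coordinates are those of mm10 with the GENCODE M21 annotation, and all runs read 5′ to 3′. The first pair spans the start codon and the first exon junction of Ndufa3, with capitals on the 10 bases that end exon 1 of the nonsense-mediated decay transcript Ndufa3-204 and are absent from the coding transcript Ndufa3-201. The second pair spans the end of exon 1 of Ndufs4, with capitals on the first 30 bases of the extra exon of Ndufs4-204. The third pair spans the end of exon 2 of Ndufv3, with capitals on the exon that follows: the last exon in Ndufv3-202 and the long optional exon in Ndufv3-201. The last run is the first 90 coding bases of Ndufb4, which the processed pseudogene Ndufb4c repeats base for base; its capitals mark the start codon.
Ndufa3-201: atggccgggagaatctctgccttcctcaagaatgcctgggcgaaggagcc
Ndufa3-204: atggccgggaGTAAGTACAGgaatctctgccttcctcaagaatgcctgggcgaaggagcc
Ndufs4-201: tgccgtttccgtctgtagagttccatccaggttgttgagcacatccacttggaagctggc
Ndufs4-204: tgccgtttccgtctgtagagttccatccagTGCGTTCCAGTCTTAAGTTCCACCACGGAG
Ndufv3-201: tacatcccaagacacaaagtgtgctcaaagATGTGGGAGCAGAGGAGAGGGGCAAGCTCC
Ndufv3-202: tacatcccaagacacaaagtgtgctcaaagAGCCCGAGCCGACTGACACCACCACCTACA
Ndufb4 and Ndufb4c: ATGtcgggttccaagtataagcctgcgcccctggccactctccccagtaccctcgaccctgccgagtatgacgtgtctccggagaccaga

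Transcripts of the complex I subunits were abundant in this muscle, and those of the assembly factors were much scarcer. The median subunit stood at 165 TPM in replicate 1 and 169 TPM in replicate 2 (167 ± 2.80, mean ± SD, n = 2). All 36 subunits were among the 1000 highest of 21888 nuclear protein-coding genes, with a median rank of 311.5. The median assembly factor stood at 14.1 and 15.5 TPM (14.8 ± 1.01, SD, n = 2), so that the median subunit was 11.7 times as high in replicate 1 and 10.8 times in replicate 2. Over all transcripts of each gene the ranges did not overlap: the lowest subunit was 2.89 and 2.76 times the highest assembly factor. On coding transcripts alone they did, with Ndufb4-201 at 10.7 and 12.7 TPM and Ndufaf5-201 at 15.1 and 16.2 TPM. The value of Ndufb4 is uncertain for reasons given below. Together the 46 genes held 1.78% and 1.77% of the TPM of nuclear protein-coding genes.

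**Figure D1:**
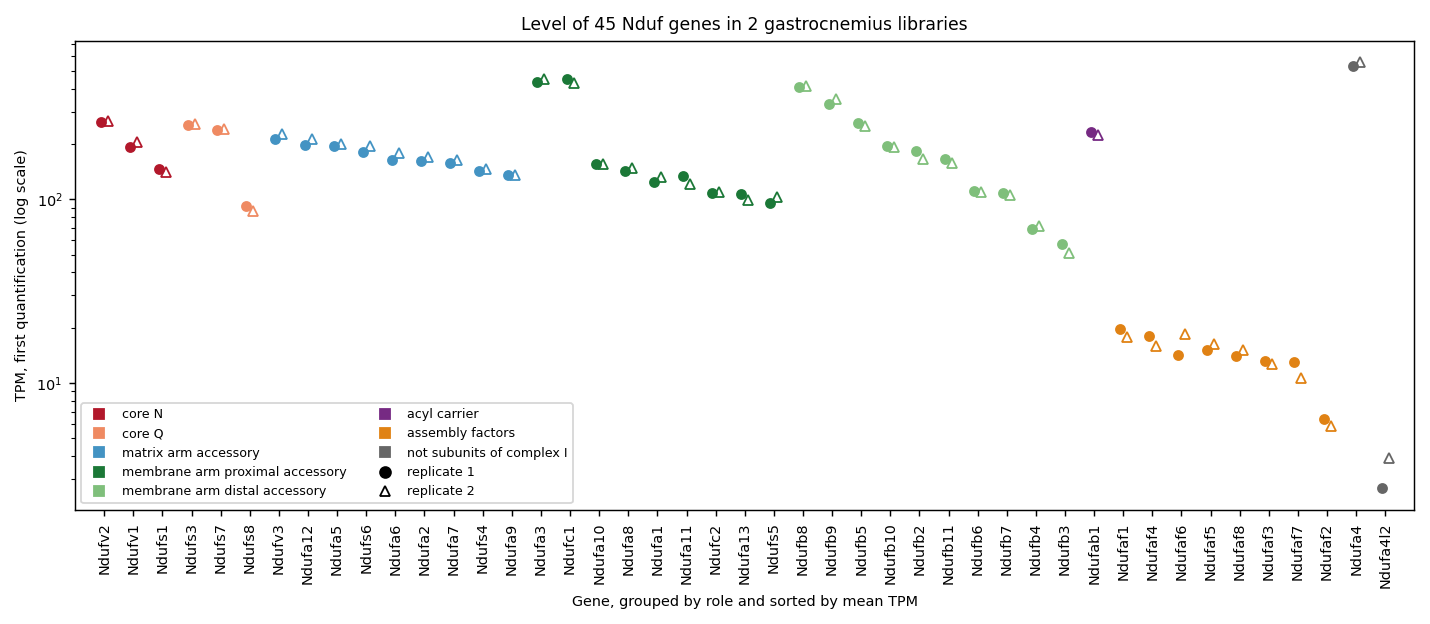
Level of 45 of the 46 Nduf genes in TPM (log axis) in replicate 1 (filled circles) and replicate 2 (open triangles), grouped by role and sorted by mean. The 8 assembly factors lie between 6.12 and 18.7 TPM on average, below all subunits shown, and the pair outside complex I spans the widest range, from Ndufa4l2 at 3.29 to Ndufa4 at 545 TPM.

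The catalytic core is encoded in the nucleus by 7 genes. In the N module, Ndufv1, which binds NADH and the flavin cofactor, stood at 192 and 205 TPM in replicates 1 and 2. Its partner Ndufv2, an iron-sulphur protein, stood at 265 and 268 TPM. Ndufs1, the large iron-sulphur subunit, stood at 146 and 142 TPM. The order Ndufv2, Ndufv1, Ndufs1 was the same in both animals.

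In the Q module, Ndufs3 stood at 255 and 258 TPM, and Ndufs7, which carries the last iron-sulphur cluster before the quinone, at 238 and 242 TPM. Ndufs8, an iron-sulphur subunit beside Ndufs7, was the lowest core gene at 91.7 and 86.0 TPM (chr19:3908863-3912774). The core median over all 7 genes was 240 ± 2.76 TPM (SD, n = 2). Over all transcripts of each gene, Ndufs3 and Ndufs7 differed by more than the spread between libraries. The second quantification set them further apart, with Ndufs3 at 420 and 432 TPM and Ndufs7 at 207 and 207 TPM. Transcripts not classed protein_coding held 44.3% of Ndufs3 in the first quantification and 82.2% in the second. For Ndufs7 they held 34.0% and 22.9%. The order of the 2 genes is therefore not shown for coding transcripts alone.

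The accessory subunits had a median of 163 ± 0.820 TPM (SD, n = 2, 29 genes). The 9 of the matrix arm were held within a narrow band, from Ndufa9, a protein of the short-chain dehydrogenase family, at 136 and 136 TPM to Ndufv3 at 213 and 225 TPM, a spread of 1.61-fold. Ndufa12 stood at 199 and 213 TPM. Ndufs6, a zinc-binding subunit, stood at 180 and 194 TPM. Ndufa6, which docks the acyl carrier protein, stood at 164 and 180 TPM. Ndufa5 stood at 195 and 200 TPM. Ndufs4, whose loss in mice and people causes a Leigh-like disease, stood at 143 and 147 TPM.

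The membrane arm was more uneven. Among its 9 proximal accessory genes, Ndufa3 (434 and 455 TPM) and Ndufc1 (452 and 431 TPM) stood apart from the other 7 over all transcripts. Those 7 lay between 99.0 and 157 TPM on average. Transcripts not classed protein_coding held 96.0% of Ndufa3 and 71.6% of Ndufc1, and 64.2% of Ndufa10 among the 7. The coding Ndufa3-201 stood at 12.7 and 8.73 TPM, Ndufa3-202 at 5.10 and 8.99 TPM, and Ndufc1-204 at 127 and 122 TPM. The gap is thus not one of coding transcripts. Ndufa3 and Ndufc1 changed places between the animals, so their order was not resolved. The lowest proximal genes were Ndufs5 at 95.3 and 103 TPM and Ndufa13, also known as GRIM-19, at 107 and 98.8 TPM, again in opposite order in the animals. Among the 10 distal accessory genes the level spanned 7.66-fold, from Ndufb8 (411 and 416 TPM) through Ndufb9 (331 and 350 TPM) and Ndufb5 (260 and 250 TPM) to Ndufb4 (68.8 and 71.2 TPM) and Ndufb3 (57.1 and 50.8 TPM). Ndufb4 cannot be read at face value, for reasons given below. Ndufab1, the mitochondrial acyl carrier protein, is bound at 2 places in the complex and also serves fatty acid synthesis; it stood at 231 and 224 TPM.

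Assembly factors covered a 3.06-fold range. Ndufaf1, which acts on the membrane arm with Ecsit and Acad9, stood at 19.7 and 17.7 TPM and had the highest mean in the first quantification; Ndufaf6 was above it in replicate 2, and Ndufaf3 was the highest in the second quantification. Ndufaf4, a Q module factor, stood at 17.9 and 16.0 TPM. Ndufaf6 stood at 14.2 and 18.4 TPM, and Ndufaf8, the partner of Ndufaf5, at 14.1 and 15.1 TPM. The 2 animals thus ordered the upper factors differently. Ndufaf7, a methyltransferase, stood at 13.02 and 10.64 TPM, and Ndufaf2, a paralogue of Ndufa12 that joins the complex late, was the lowest at 6.39 and 5.85 TPM. The 12 assembly genes with other names that were found in the files had nearly the same median, 15.5 ± 0.990 TPM (SD, n = 2). They ranged from Nubpl, an iron-sulphur cluster carrier, at 2.26 TPM to Tmem126a at 48.2 TPM, so that Tmem126a, Ecsit (41.4 TPM) and Tmem70 (25.6 TPM) exceeded every Nduf assembly factor in the mean of both libraries.

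The pair outside complex I was the most divergent. Ndufa4, now placed in complex IV, had the highest level of all 46 genes in the first quantification at 532 and 559 TPM (chr6:11900292-11907497). In the second it stood at 430 and 436 TPM, below Ndufa3 at 472 and 455 TPM. The Ndufa4 paralogue Ndufa4l2 is induced by low oxygen and is known from pericytes of the vessel wall. It had the lowest level at 2.67 and 3.91 TPM (chr10:127514967-127517154). Ndufa4 was 199 times Ndufa4l2 in replicate 1 and 143 times in replicate 2.

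Beside the other complexes, the nuclear complex I subunits were at the low end. The median was 227 TPM for the 4 genes of complex II, 309 TPM for 9 of complex III, 423 TPM for 11 of complex IV and 327 TPM for 15 of complex V. Ndufa4 (545 TPM) exceeded the complex IV median and not the highest gene on that list, Cox8b (772 TPM). Levels of the 7 subunits encoded in mitochondrial DNA were far above the nuclear core: their median was 2431 ± 28.2 TPM (SD, n = 2), 10.3 and 9.96 times that of the 7 nuclear core genes. They ran from mt-Nd6, the only complex I gene on the light strand, at 640 and 582 TPM to mt-Nd1 at 5153 and 4792 TPM. Between these lay mt-Nd2 (2165 and 1805 TPM), mt-Nd4l (2217 and 2168 TPM), mt-Nd5 (2451 and 2411 TPM), mt-Nd3 (3330 and 3228 TPM) and mt-Nd4 (3745 and 3383 TPM). The lowest mitochondrial complex I gene was thus still above the highest nuclear Nduf gene in each library, but not above Cox8b.

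**Figure D2:**
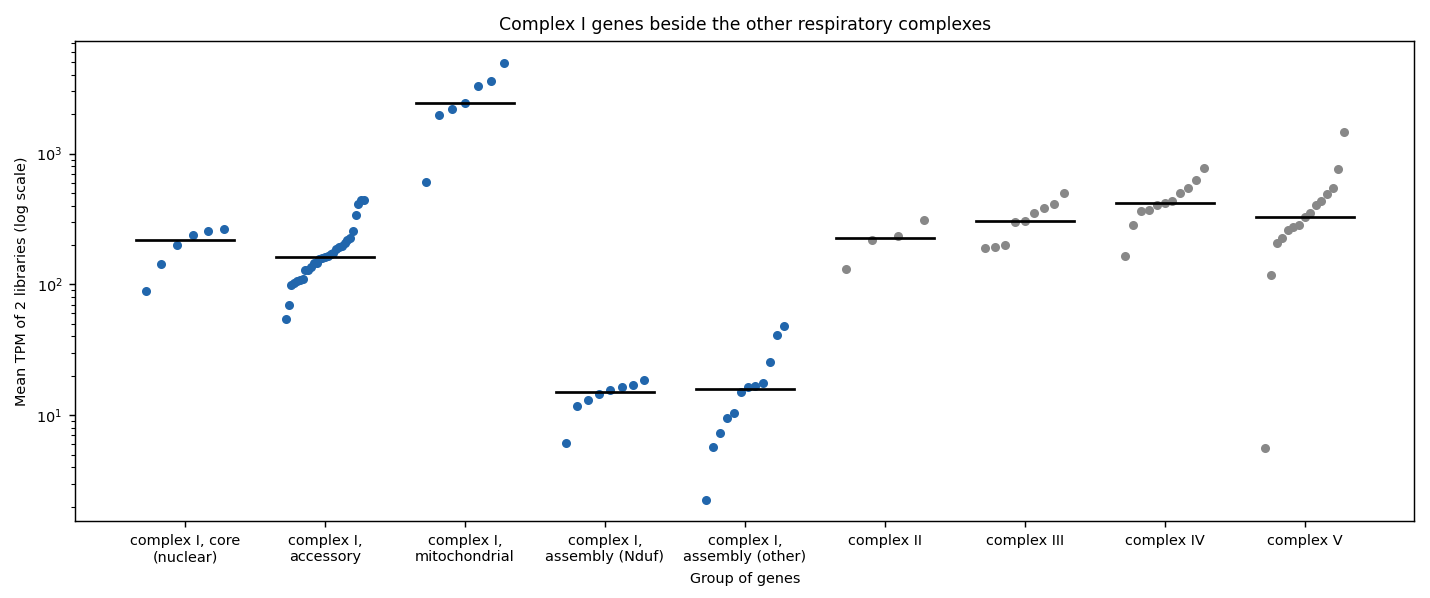
Mean TPM of the 2 libraries (log axis) for genes of complex I by part (blue, with 6 of the 7 nuclear core genes) and of complexes II to V (grey), with a bar at the median of the points shown. The 7 mitochondrial genes start at 611 TPM, and both sets of assembly genes lie near 15 TPM.

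Differences between the animals were small. An exact two-sided binomial test on the reads of the 2 libraries, with TMM scaling and Benjamini-Hochberg adjustment over 14101 genes, called 9 of 46 members (19.6%) at an adjusted p of 0.05, against 21.6% of all genes tested. This test compares these libraries and covers counting error alone, with no replicate of either animal. Under TMM the share called was thus near that of other genes. Of the 9, 8 were higher in replicate 2 (10.3% of all genes were) and 1 in replicate 1 (11.4% of all genes were). At 1000 or more counts, where small differences can be seen, 7 of 35 members (20%) were called against 40.6% of 3117 genes. The median absolute log2 ratio was 0.08 for the 44 members with at least 100 counts and 0.12 for all genes at that depth. Of the 36 subunits and Ndufa4, 34 of 37 lay within 1.1-fold of no difference, as the plot of ratios by gene shows.

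The 8 members higher in replicate 2 were mostly small steps in the matrix arm. Ndufa6 (2003 and 2491 counts) had a log2 ratio of 0.16, with a 95% counting interval of 0.07 to 0.24. Ndufa5, Ndufs6 and Ndufa12 had 0.14, 0.13 and 0.13, and the core subunit Ndufv1 had 0.08. Thus 5 of 16 matrix arm genes were called, against 1 of 19 membrane arm accessory genes, Ndufb9 at 0.10. Of all genes with 1000 or more counts, 40.6% were called in either direction, and all of these but Ndufb3 and Ndufb4 were that deep. Neither arm exceeded that share, and whether the arms differ was not tested. Ndufa4 had 0.10. The largest called difference was in the assembly factor Ndufaf6 (324 and 452 counts), with a log2 ratio of 0.32 and an interval of 0.12 to 0.53 (adjusted p = 0.0127, exact binomial test).

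Ndufaf4 was the only member called higher in replicate 1 (791 and 750 counts, log2 ratio -0.23, interval -0.38 to -0.09, adjusted p = 0.0105, exact binomial test). No member with at least 100 counts was 1.5-fold apart, against 3.42% of all genes at that depth. The nearest to that size was Ndufa4l2, below that depth, with 56 and 93 counts and a log2 ratio of 0.57 (adjusted p = 0.0844, exact binomial test), which did not pass. Of the 8 pericyte markers, 5 were called higher in replicate 2, with a median log2 ratio of 0.38 and none at 0. The 8 summed to 134 and 144 TPM, most of it on Rgs5 (58.4 and 66.5 TPM) and Abcc9 (63.3 and 60.65 TPM). Abcc9 had a log2 ratio of -0.02 and was not called. Higd1b had -1.01 on 19 and 10 counts and was not called. Adipocyte markers were called higher in replicate 2 for 4 of 4 genes (summed levels 16.7 and 25.6 TPM, median 0.60). Endothelial markers were for 3 of 6 (35.08 and 40.03 TPM, median 0.25), with none at 0 in either list. Of 5 fibroblast markers, 1 was called higher in replicate 2 and 1 in replicate 1 (median 0.02). Of the 3 macrophage markers tested, 0 were called (median -0.07). The part of these lists in the Ndufa4l2 values was not tested. The mitochondrial genes leaned the other way: 4 of 7 (mt-Nd1, mt-Nd2, mt-Nd4 and mt-Nd6) were called higher in replicate 1 and none in replicate 2, with a median log2 ratio of -0.08. Of the other complexes, 4 of 9 genes of complex III, 5 of 15 of complex V, 1 of 11 of complex IV and 1 of 4 of complex II were higher in replicate 2, and none was higher in replicate 1. Depth bears on these shares: where the average count reached 1000, 40.6% of all genes were called in either direction. Of the mitochondrial genes and those of complexes II to V, all but Atp5g2 and Atp5k were that deep. Whether these sets differ from genes of like depth was not tested.

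These directions rest on the scaling. A change of scaling moves the log2 ratio of every gene by nearly the same amount. The move under total counts, 0.12, is larger than the mitochondrial median of -0.08 and opposite in sign. Calls of the mitochondrial genes and of complexes II to V are given under TMM alone. Under total counts, which move the median of all genes by 0.12 on the log2 scale, 31 members (67.4%) were called, all higher in replicate 2, against 30.9% of all genes in either direction. Under the spike-ins, which move it by -0.14, 24 (52.2%) were called, all higher in replicate 1, against 35.6% of all genes. The share of members called was thus above that of all genes under both of these scalings. With the spike-ins 27 of the 46 members changed sign, among them 6 of the 8 called higher in replicate 2 under TMM, and only Ndufa6, Ndufaf6 and Ndufa4l2 stayed above 0. Relative to the median of all genes, the median member stood at 0.04 under TMM, total counts and spike-ins. With an assumed biological coefficient of variation of 0.1, no member passed, against 290 of all genes (2.06%).

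**Figure D3:**
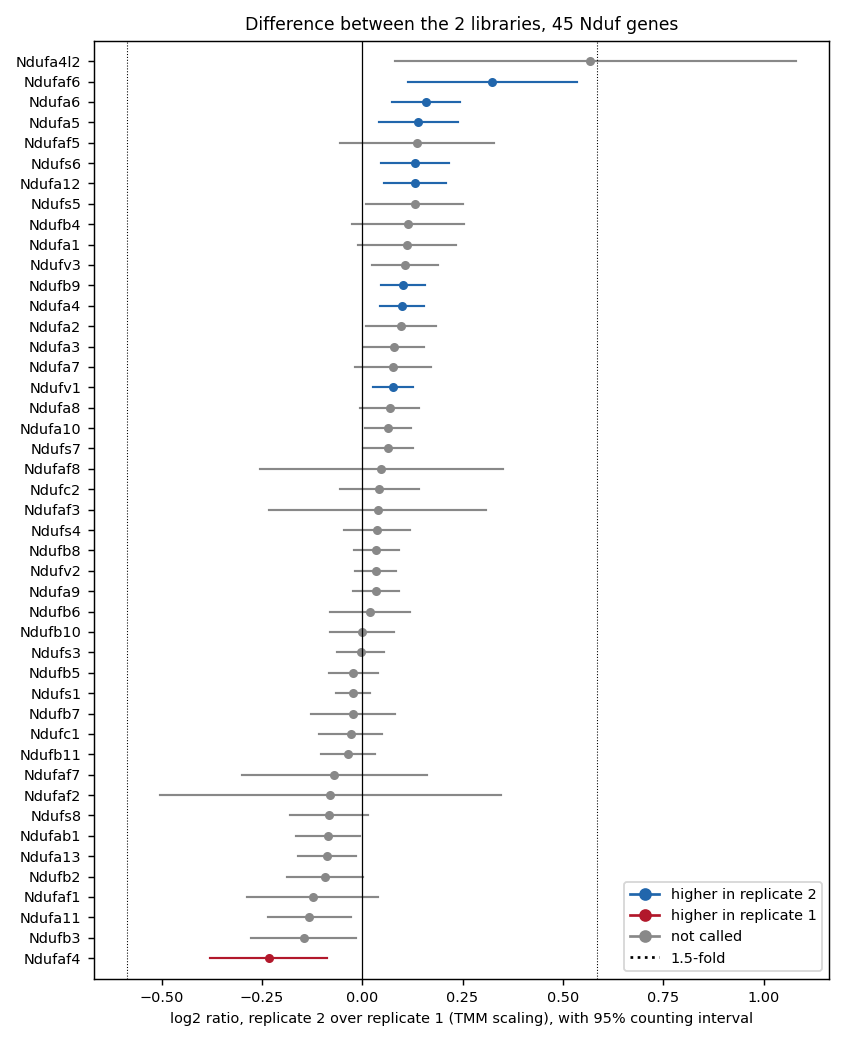
Log2 ratio of replicate 2 over replicate 1 for 45 of the 46 genes with its 95% counting interval; blue marks the 8 called higher in replicate 2, red the 1 called higher in replicate 1, and dotted lines mark 1.5-fold. Ndufa4l2 has the widest interval, from 0.08 to 1.08.

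Each library had been quantified in 2 ways from the same reads, which gives a check that needs no second animal. Across the 46 genes the log2 TPM of both quantifications correlated with r = 0.98, a description over genes that share the same libraries. Of 45 members at 5 or more TPM, 3 were at least 1.5-fold apart, a share near the 4.27% of all such genes. All 3 were lower in the first quantification. Ndufs3 stood at 255 and 258 TPM in the first and 420 and 432 TPM in the second. Ndufaf3, a Q module assembly factor, stood at 13.2 and 12.7 TPM in the first and 22.4 and 21.2 TPM in the second.

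Ndufb4 differed most, at 68.8 and 71.2 TPM in the first quantification and 169 and 172 TPM in the second. Its processed pseudogene Ndufb4c, a single exon on the minus strand at chr15:73809507-73809896, went the opposite way, from 256 and 261 TPM in the first to 33.4 and 27.7 TPM in the second. All 390 bases of Ndufb4c are identical to the Ndufb4 coding sequence with its stop codon, so that 100% of its 31-base words also occur in Ndufb4 transcripts, and reads that fall inside this stretch cannot be told apart. Ndufb4 took 21.1% and 21.4% of the pair's TPM in the first quantification and 83.5% and 86.2% in the second. The sum of both was 325 and 333 TPM in the first and 203 and 200 TPM in the second. In either table the sum is well above the first quantification's value for Ndufb4 alone, so the low rank of Ndufb4 among the distal subunits is uncertain.

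**Figure D4:**
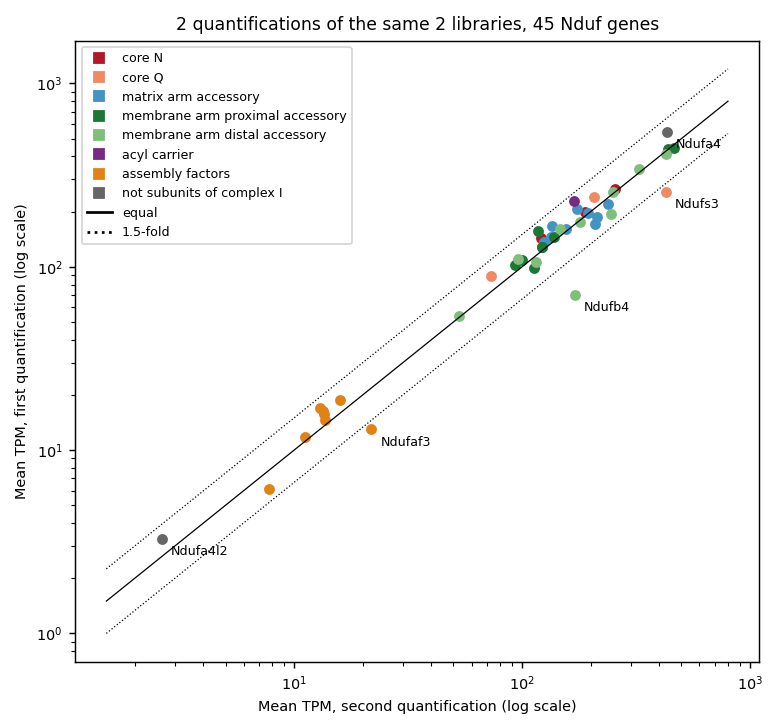
Mean TPM of 45 of the 46 genes in the first against the second quantification (both axes logarithmic), coloured by role; the solid line marks equal values and the dotted lines 1.5-fold. Ndufb4, Ndufs3 and Ndufaf3 lie below the lower dotted line.

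Other members also share sequence with pseudogenes. For the median member, 98.4% of the 31-base words in its transcripts occurred in no other annotated gene on the same strand, and 12 members shared none. The lowest was Ndufs5 with 73.5%: a further 26.5% of its words lie in the processed pseudogene BC002163, listed at 55.1 and 65.4 TPM in the first quantification and 25.7 and 61.8 TPM in the second. Ndufa12 shared 20.2% with the pseudogene Gm15920, which was listed at 49.99 and 51.67 TPM in the first and 113 and 135 TPM in the second. Ndufs3 shared 21.2% with Gm12251, which was at or below 0.38 TPM in all 4 values. Of the 5 Nduf symbols without a coding transcript, Ndufa11b, Ndufab1-ps and Ndufs6b were listed at 0 in both libraries. Ndufb1-ps, classed as a bidirectional promoter lncRNA, stood at 73.1 and 72.7 TPM, within the range of the subunits. The role lists place it with the distal accessory genes of the membrane arm. The rule left it out, so the subunits counted here include no Ndufb1.

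The transcripts assigned to these genes were often not the protein-coding ones. Among the members, 39 had at least 2 annotated transcripts and 5 or more TPM, and all 39 had the same dominant transcript in both animals, against 90% of the 5759 genes that met the same conditions. In 9 of the 39 (23.1%) the dominant transcript was not classed protein_coding, against 7.31% of those genes. Leaders were read by TPM, and some change by expected counts, as given below. In the second quantification the count was 12, against 9.67% of those genes, and 8 were led by such transcripts in both (20.5%), against 5.47%. In 18 of 39 (46.2%) at least 20% of the gene's TPM lay on such transcripts, against 26.8%. The median share was 17.7% over the members and 5.01% over the genes. These transcripts are often short, and TPM gives a short transcript more weight than its reads. By expected counts the median share was 6.85% (2.05% over the genes), and 14 members (35.9%) were at 20% or more, against 12.4%. Among the other complexes, 1 of 8 genes of complex III, 2 of 9 of complex IV, 2 of 15 of complex V and 0 of 3 of complex II were led by a transcript not classed as coding.

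Ndufa3 was the most extreme case. Its level was placed almost entirely on Ndufa3-204, with 95.7% and 96.0% of the gene's TPM in replicates 1 and 2 (415 and 436 TPM) and 88.8% in the second quantification. This transcript is annotated as a target of nonsense-mediated decay, the pathway that destroys messages with an early stop. Its exon 1 ends at chr7:3617417 rather than chr7:3617407. The 10 added bases shift the frame, and the first in-frame stop follows after 38 codons, compared with 84 in Ndufa3-201. Of its 343 exonic bases, 97.1% also lie in a coding transcript, the 10 added bases being the rest, and 27 of its 31-base words occur in no coding transcript of the gene. Ndufa3-201 itself received 2.42%.

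Ndufs4 followed the same pattern. Ndufs4-204, also annotated for decay, took 77.7% and 69.8% of the gene in the first quantification and 82.8% and 85.9% in the second. Its extra exon of 50 bases lies at chr13:114387408-114387457, and its annotated coding sequence ends 13 bases into it. The full-length coding transcript Ndufs4-201 received 4.70%. All transcripts not classed coding together held 85.3% ± 3.23 of Ndufs4 (SD, n = 2).

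Retained introns led in 5 members by TPM. By mean share of expected counts they still led in Ndufb4 (67.3%) and Ndufc1 (61.8%). By that measure coding transcripts led in the others: Ndufab1-202 with 31.8% against 26.9% for Ndufab1-205, and Ndufaf8-201 with 64.9% against 35.1% for Ndufaf8-203. In Ndufaf7 it was Ndufaf7-201 with 46.2% against 33.3% for Ndufaf7-205, although Ndufaf7-205 was ahead in replicate 1 (40.2% against 37.4%). Ndufb4-202 took 84.2% and 81.9% of Ndufb4, and the stretch that Ndufb4-201 shares with its pseudogene was not set apart in this split. Ndufc1-203 took 66.4% and 65.3% of Ndufc1, and the second quantification put 99.9% of that gene on transcripts not classed coding. Ndufab1-205 took 38.3% and 37.4% of Ndufab1 and 86.0% in the second quantification. The assembly factors Ndufaf7 and Ndufaf8 were led by Ndufaf7-205 (55.6% and 41.7%) and Ndufaf8-203 (51.6% and 58.3%). Ndufaf4 was led by the processed transcript Ndufaf4-202, with 68.2% and 61.1%. Among genes led by a coding transcript, the core subunit Ndufs7 had the least even share on other transcripts, 43.4% in replicate 1 and 24.5% in replicate 2. The noncoding and decay transcripts that led 9 genes had a median length of 453 bases, compared with 681.5 bases for the dominant coding transcripts of the other members.

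For 30 of the 39 members (76.9%) the dominant transcript was shared by both quantifications, against 81.8% of all such genes. For Ndufa5 the processed transcript Ndufa5-204 led in the first with 67.9% and 78.8%, and received 0% in the second, where the retained intron transcript Ndufa5-203 led with 78.0% and 55.3%. For Ndufa10, a kinase-like subunit, the coding Ndufa10-201 led with 35.4% in the first, and the decay transcript Ndufa10-207 led with 45.0% in the second. Ndufb10, Ndufs3 and Ndufs6 likewise moved from a coding leader to Ndufb10-204 (65.3%), Ndufs3-204 (60.8%) and Ndufs6-202 (54.0%), while Ndufaf8 moved to the coding Ndufaf8-201 (51.2%). In Ndufa4, Ndufa9 and Ndufaf1 both leaders were coding: Ndufa9-203 held 98.4% of Ndufa9 in the first, and Ndufa9-201 held 70.2% in the second. Ndufa10 as a whole stood at 157 and 156 TPM and Ndufb10 at 195 and 192 TPM. The split of these 9 genes among their transcripts is therefore uncertain, even where replicates are close.

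Ndufv3 was placed almost wholly on 1 of its coding forms. Ndufv3-202, which joins exon 2 directly to the last exon, held 99.1% and 99.2% of the gene in the first quantification and 99.3% in the second. The long form Ndufv3-201 adds an exon of 1092 bases at chr17:31527310-31528401. It is among the 30 genes with 1 leader in both animals and both quantifications.

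**Figure D5:**
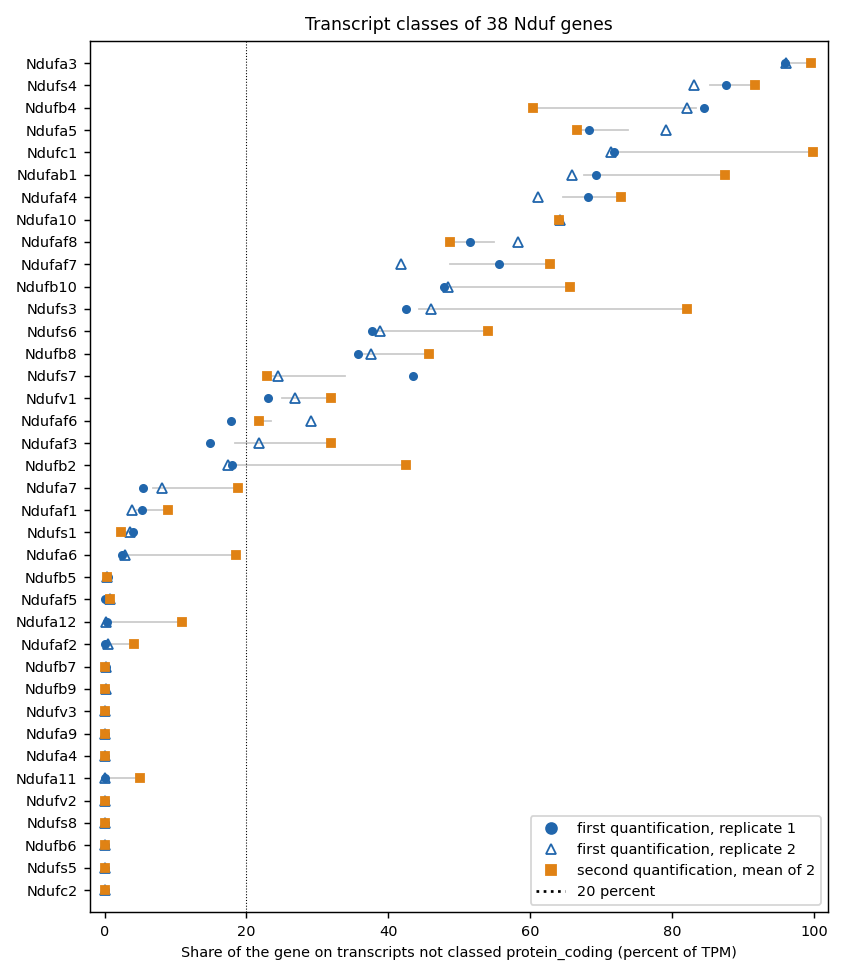
Share of TPM on transcripts not classed protein_coding in 38 of the 39 genes, in percent, for replicate 1 (circles) and replicate 2 (triangles) of the first quantification and for the mean of the second (squares); the grey line joins the means of both quantifications. Ndufa3 and Ndufs4 exceed 80% in all values, and 17 of the genes shown have a mean of 20% or more in the first.

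The sequences around the gene starts were searched for motifs of known regulators. RefSeq promoter windows (GRCm38.p6, 250 bases before to 50 after the start) were matched for 40 members, and no window was used for 6 members, among them Ndufa2, Ndufa4l2, Ndufaf6, Ndufb9 and Ndufs1. The core letters of nuclear respiratory factor 1 (NRF1), a regulator of nuclear genes for mitochondria, occurred on either strand in 9 of 40 (22.5%, exact 95% interval 10.8 to 38.5) and in 5.19% of the 27025 genes in the table. The YY1 letters AAGATGGC occurred in 8 (20%, interval 9.05 to 35.6) and in 3.19% of all. Each of these 8 matches began between 10 and 38 bases after the start, and none lay before it. The YY1 letters hold an ATG, and in Ndufa3 this ATG is the start codon of Ndufa3-201. Whether the other matches cover a start codon was not tested. CCGGAAG, read by ETS factors such as GABPA, occurred in 6 (15%, against 9.93%), and the SP letters GGGCGGGG in 9 (22.5%, against 19.6%). CCAAT occurred in 14 (35%, against 41.1%), TATAAA in 4 (10%, against 15.7%) and the ERR letters TCAAGGTCA in 0 (against 0.466%). Member windows had a median GC content of 59.3% and all windows 52.7%, which was not adjusted for. A match describes letters and says nothing of binding.

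A subunit and an assembly factor with the NRF1 letters before their start are shown as examples. These are the 120 bases before the start of Ndufa11 (chr17:56717642-56717761, plus strand), a membrane arm subunit, and of Ndufaf4 (chr4:24897963-24898082, plus strand). Capitals mark the NRF1 letters in both and the SP letters in Ndufaf4. The 10 letters of the NRF1 match are the same in both, although Ndufa11 stood at 135 and 121 TPM and Ndufaf4 at 17.9 and 16.0 TPM.
Ndufa11: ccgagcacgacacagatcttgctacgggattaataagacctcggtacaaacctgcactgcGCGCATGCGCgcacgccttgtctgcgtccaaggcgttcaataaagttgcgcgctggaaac
Ndufaf4: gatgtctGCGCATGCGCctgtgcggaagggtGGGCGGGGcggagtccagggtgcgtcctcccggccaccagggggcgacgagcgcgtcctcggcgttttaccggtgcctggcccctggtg

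Of the 46 members, 13 (28.3%) begin within 1000 bases of a protein-coding gene that is transcribed away from them, against 6.79% of all 21901 genes with a coding transcript. The median distance between such starts was 85 bases. Of the 13, 12 were higher than their partner, with a median of 145 TPM for the members and 4.31 TPM for the partners. All 36 subunits were among the 1000 highest of 21888 nuclear protein-coding genes, so most other genes lie below them. No like comparison was made for other divergent pairs. Ndufa4 at 532 and 559 TPM faces Phf14 at 10.6 and 10.7 TPM, and Ndufb9 at 331 and 350 TPM faces Tatdn1, whose start is 18 bases away, at 16.2 and 18.4 TPM. Ndufa7 was the exception. It stood at 157 and 163 TPM, 10 bases from the start of Rps28, a ribosomal protein gene at 264 and 264 TPM.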

How the data were processed

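Total RNA-seq of gastrocnemius from 2 mice, 1 library each, was used as deposited. Per the labels and the file headers, reads were assigned to mm10 with GENCODE M21 and ERCC spike-ins. The aligner, the tool versions and the strand setting of the counting are not given in the sources used here. The authors deposited 1 gene and 1 transcript table per library with expected counts, TPM and the percent of each gene's TPM per transcript (called the first quantification here), and 1 further transcript table with estimated counts and TPM (the second), summed to genes here. Per the labels the library kit is directional. Expected counts were rounded to whole numbers. Spike-ins made up 0.257% and 0.308% of all counts and were kept out of the tests.

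The libraries (36792619 and 37752252 gene counts) were scaled by TMM in edgeR 4.0.16 (R 4.3.3) and compared by an exact conditional binomial test in scipy 1.17.1, for genes whose mean count reached 10, with Benjamini-Hochberg adjustment and a threshold of 0.05. The log2 ratios used a prior count of 1, and 95% intervals are exact binomial. All intervals cover counting error only, since reads without molecular identifiers are not independent molecules. An edgeR model fit was not used because there is 1 group. Counts of the libraries were further apart than sampling alone gives, with a chi-square of 94.4 per degree of freedom over all genes and 3.47 over the members. Each value was scaled to the summed counts of its own set of genes, so the baselines differ. This cannot tell 2 animals from 2 libraries of 1 animal. The libraries were kept as 2 samples by their different animal numbers. The test was run on simulated data first. Dominant transcripts were read for genes with 2 or more transcripts at 5 or more TPM. Sharing was counted over 31-base words of the reference transcripts. Both animals are hybrids while the reference carries 1 parental sequence, and its part in any value was not tested. The alternatives were other scalings (with DESeq2 1.42.0 size factors among them), filters, prior counts, TPM minimums, denominators, an assumed variation and the second quantification. Complex V holds 1 gene per symbol, the higher of 2 entries for Atp5o. The members, gene lists and tests were chosen with earlier results of these data known. Genes are named by this rule: the core subunits, the 3 highest and 2 lowest of each role group, members 1.5-fold apart, those with a leading transcript that differs between tables, those with 20% or more of TPM on transcripts not classed coding, the 5 largest log2 ratios at 100 or more counts, Ndufa4, Ndufa4l2, Ndufab1, Ndufv3 and the mitochondrial genes; others were named after their values were seen. Protein sequences were not used here. Values of 1 member are not reported here; it stays in the counts, medians and fits over the whole family.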

Additional observations from a re-analysis of the deposited data

How the results depend on the processing

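No paired analysis was possible because the samples form 1 group. Of 446 values recomputed under alternatives, 290 kept their direction and call or stayed within the spread, and 6 of called members reversed. The count of members called was 31 under total counts (67.4%, against 30.9% of all genes), 24 under spike-ins (52.2%, against 35.6%), 14 in the second quantification (30.4%, against 20.96%; 12 of them higher in replicate 2) and 0 with an assumed variation of 0.1 (290 of 14101 genes passed there), compared with 9; DESeq2 size factors and no filter gave 9, and a minimum of 100 counts gave 11. All 6 reversals of called members came with the spike-ins: Ndufa12 -0.012, Ndufa4 -0.044, Ndufa5 -0.0044, Ndufb9 -0.042, Ndufs6 -0.012 and Ndufv1 -0.068 on the log2 scale; the cause of these differences was not tested. The median subunit stood at 384 TPM with nuclear protein-coding genes as the denominator and 134 TPM when only protein_coding transcripts were counted, compared with 167; the first follows from the smaller denominator and the second from the transcripts left out. The median share on transcripts not classed coding was 14.94% without replicate 2, 17.4% without replicate 1 and 6.85% by expected counts, the last chosen after seeing the data, as was the 1.5-fold count with no minimum of 100 counts, which stayed at 0. With the bases before the start alone the YY1 letters occurred in 0% of member windows (1.83% of all genes), and the NRF1 letters in 17.5% (4.23% of all genes). Counts under 100 limit Ndufaf2 and Ndufa4l2 most: their 95% intervals span -0.50 to 0.34 and 0.08 to 1.08 on the log2 scale.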

Other observations

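Among the listed genes of complexes II to V, the widest gap between the quantifications was in Atp5g2, which encodes the c-ring subunit of ATP synthase. It stood at 5.14 and 6.12 TPM in the first quantification and 130 and 144 TPM in the second. Its paralogues Atp5g1 (544 and 539 TPM in the first, 410 and 401 TPM in the second) and Atp5g3 (409 and 405 TPM, then 372 and 354 TPM) moved far less. It was named after its values were seen.

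The pseudogene Gm4459, which holds 5.93% of the 31-base words of Ndufab1, was listed at 2.00 and 0 TPM in the first quantification and 63.3 and 61.6 TPM in the second. Ndufab1 itself stood at 231 and 224 TPM in the first and 178 and 160 TPM in the second. The part of the shared words in this gap was not tested.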
